A study of Mus musculus with 4 samples.

Results

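The 10 genes examined here mark B-1 cells, memory B cells and atypical (T-bet positive) B cells, and were compared in splenic B220+ cells with wild-type or POZ-deficient MIZ-1. They were taken by name from a gene list, with earlier results of these data known. For B-1 cells they are *Bhlhe41*, *Bhlhe40*, *Cd5*, *Spn* and *Ctla4*. For memory B cells they are *Cd80*, *Nt5e* and *Pdcd1lg2*, and for atypical B cells *Tbx21* and *Sox5*. All 10 were found among the 41214 genes of the table, and all 10 were among the 14554 genes that passed the filter on low counts. The assay was RNA-seq of unstimulated B220+ splenocytes, with 2 libraries from MIZ-1WT mice and 2 from MIZ-1DPOZ mice, where DPOZ stands for the deleted POZ domain. MIZ-1DPOZ mice carried *Miz-1* floxPOZ alleles and MB1-Cre, which is driven by the *Cd79a* promoter and acts in B cells, so that a truncated MIZ-1 without its POZ domain was made in B cells while other cells kept the intact protein. MIZ-1WT mice were labelled as wild type, and whether they carried the Cre is not given in the sources used here. Both groups were young adult mice on a C57BL/6 background. The cells were enriched on magnetic beads for B220 and not sorted into B cell subsets, so a lower or higher level can reflect the share of a subset or the RNA per cell, and these cannot be told apart here.

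B-1 cells are self-renewing B cells of the body cavities and, in small numbers, of the spleen, and they make natural IgM. They carry CD5 (the B-1a subset) and CD43, the product of *Spn*, and depend on the transcription factor BHLHE41. Memory B cells of the mouse are recognised by combinations of CD80, PD-L2 (*Pdcd1lg2*) and CD73 (*Nt5e*). Atypical, or age-associated, B cells express the transcription factor T-bet (*Tbx21*) and often CD11c (*Itgax*), and SOX5 has been described in human atypical memory cells. Several of these genes are also used outside B cells. CD5, CD43, CTLA-4 and T-bet are T cell or NK cell proteins, and CD80 and PD-L2 are made by macrophages and dendritic cells.

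The libraries held between 43026814 and 46387209 counts on genes. *Zbtb17*, which encodes MIZ-1, had 2087 and 1946 counts in MIZ-1WT and 1774 and 1669 in MIZ-1DPOZ (log2 fold change -0.32, adjusted p = 0.00857 from edgeR). Without MIZ-1WT replicate 1 this call was lost (adjusted p = 0.0696), and scaled on pan-B cell genes the value was -0.08. Counts cover the whole gene, so they do not show which exons were deleted. Levels are given as CPM, the counts scaled to a common library size after TMM normalization, which assumes that most genes do not differ. *Xist* (49 and 60 counts in MIZ-1WT, 38145 and 40838 in MIZ-1DPOZ) and the Y-linked *Ddx3y* (15840 and 14896 against 680 and 622) did not overlap between genotypes. Sex and genotype therefore cannot be told apart in any of the results. Of 10 pan-B cell genes, 8 were lower and 0 were higher in MIZ-1DPOZ by edgeR's quasi-likelihood test, with a median log2 fold change of -0.26. The 10 include *Cd79a*, whose promoter drives the MB1-Cre. *Cd79a* was left out where libraries were scaled on pan-B cell genes, which used the other 9. All 16 macrophage markers were higher, with a median of 1.98. The values of these markers are given beside the members that moved with them.

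The upstream sequences of 4 members that were higher in MIZ-1DPOZ are shown first, as the stretch of DNA where transcription factors such as MIZ-1 and BHLHE41 act. They come from RefSeq (GRCm38.p6), which gave a window for 9 of the 10 members, each from 250 bases before to 50 bases after the start site. *Bhlhe40* had no window. Bases in annotated exons are left out, so that of *Bhlhe41* 112 bases are printed, ending 139 bases before the start. All are on the strand of the gene. The windows of *Ctla4* and *Cd80* lie inside the annotated gene spans given below, since the RefSeq start differs from the outermost annotated start. Gene positions and distances between neighbours below use the annotated spans. Capitals mark the letters CACGTG, the E-box that BHLHE41 and the clock proteins bind. The windows are chr6:145865559-145865670 (minus strand), chr1:60908775-60909024 (plus strand), chr16:38458683-38458932 (plus strand) and chr11:97115332-97115581 (minus strand).
Bhlhe41: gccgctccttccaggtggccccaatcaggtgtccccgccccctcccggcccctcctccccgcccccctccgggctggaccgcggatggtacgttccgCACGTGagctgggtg
Ctla4: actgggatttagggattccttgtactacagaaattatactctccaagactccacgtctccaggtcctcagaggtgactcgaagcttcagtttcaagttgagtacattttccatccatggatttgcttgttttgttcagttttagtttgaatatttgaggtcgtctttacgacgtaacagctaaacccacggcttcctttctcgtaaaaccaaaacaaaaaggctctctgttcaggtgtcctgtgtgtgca
Cd80: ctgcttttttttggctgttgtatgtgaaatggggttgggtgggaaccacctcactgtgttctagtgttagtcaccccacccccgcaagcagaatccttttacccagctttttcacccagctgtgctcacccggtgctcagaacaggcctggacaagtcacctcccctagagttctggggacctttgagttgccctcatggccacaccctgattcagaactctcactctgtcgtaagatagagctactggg
Tbx21: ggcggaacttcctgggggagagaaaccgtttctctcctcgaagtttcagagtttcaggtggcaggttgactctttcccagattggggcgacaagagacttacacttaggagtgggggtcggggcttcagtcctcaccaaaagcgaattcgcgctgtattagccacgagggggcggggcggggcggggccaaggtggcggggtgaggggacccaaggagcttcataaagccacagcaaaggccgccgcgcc
The E-box of *Bhlhe41* began 153 bases before the start site, and none of the other 8 windows held one. Among all 32851 windows of the same length, 7.15% held CACGTG. Searches on both strands for GGTGTGA, the core of a T-box site (3.98% of all windows), and for the short MIZ-1 motif ATCGAT (0.925%), gave no match in the 9 windows. The windows differed in base composition. The 250 bases before the start held 31 CpG dinucleotides in *Bhlhe41*, 21 in *Nt5e* and 16 in *Tbx21*, but 7 in *Ctla4* and 3 each in *Cd80*, *Cd5*, *Spn*, *Pdcd1lg2* and *Sox5*. *Nt5e* is not printed, since an annotated exon covers the far end of its window. Its window begins inside the annotated gene, and its RefSeq start matched no annotated transcript. The CpG count of *Nt5e* is therefore not that of bases before the annotated gene.

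Of the 10 members, 5 were higher in MIZ-1DPOZ and 0 were lower by edgeR's test. *Nt5e* differed most, followed by *Ctla4*, *Cd80*, *Tbx21* and *Bhlhe41*, and all 3 roles were represented among these 5 genes. The other 5 members, *Cd5*, *Spn*, *Bhlhe40*, *Sox5* and *Pdcd1lg2*, did not pass the test. At an adjusted p under 0.05 (edgeR), 5 of 10 members were called higher, against 21.1% of all genes tested, and 0 were called lower, against 18.9%. The share of all genes called in either direction was 40.0%. DESeq2 called the same 5 members higher at an adjusted p under 0.05. At an unadjusted p under 0.05, 1 member (*Pdcd1lg2*) was lower with edgeR and 0 with DESeq2. The study's limits were a change of 0.6 on the log2 scale and an unadjusted p under 0.05. Past them, 4 members were higher, against 15.0% of all genes, and 0 were lower, against 5.30% (20.3% in either direction). *Bhlhe41* lay just short of this size limit. Both MIZ-1DPOZ libraries lay above both MIZ-1WT libraries for 6 members and below them for 1, where 37.2% and 37.6% of all genes did so (74.8% in either direction). The median log2 fold change of the 10 members was 0.43, and that of all genes tested was -0.01. Leaving out MIZ-1WT replicate 1 left 3 members called higher, and leaving out MIZ-1WT replicate 2 left 4.

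**Figure D1:**
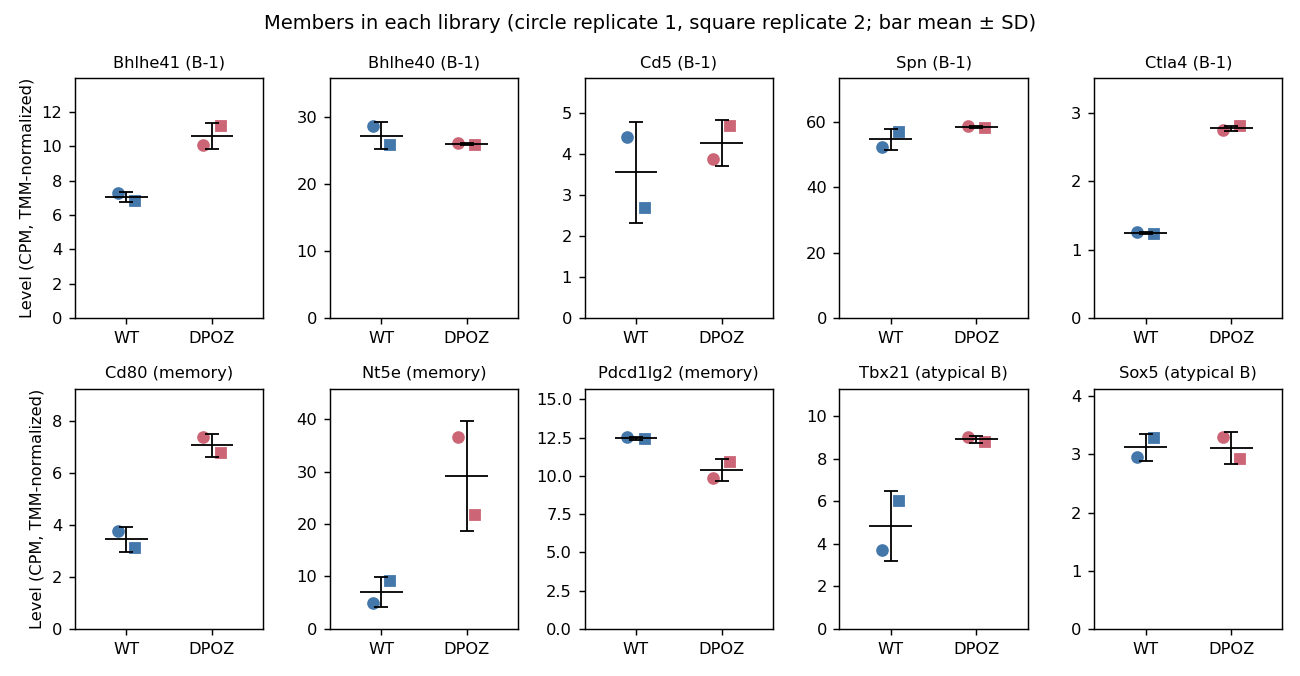
Level of each of the 10 members (CPM, linear axis from 0) in the 2 MIZ-1WT and 2 MIZ-1DPOZ libraries; circles are replicate 1, squares are replicate 2, and bars give the mean ± SD. The MIZ-1DPOZ points of *Nt5e*, *Ctla4*, *Cd80*, *Tbx21* and *Bhlhe41* lie above both MIZ-1WT points, while those of *Cd5*, *Bhlhe40* and *Sox5* overlap with them.

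Among the B-1 genes, *Bhlhe41* (ENSMUSG00000030256) lies on chromosome 6 from 145858243 to 145865558. It encodes a basic helix-loop-helix repressor that is required for B-1a cells and also belongs to the circadian clock. Its counts were 317 and 287 in the MIZ-1WT replicates and 480 and 490 in the MIZ-1DPOZ replicates, or 7.27 and 6.83 CPM against 10.1 and 11.2 CPM. Both MIZ-1DPOZ libraries were higher, and the groups did not overlap. The gene shares 1280 bases of exon with the antisense gene *Gm43909*, which was not analysed here. The log2 fold change was 0.59 (standard error 0.11, 95% confidence interval from 0.31 to 0.87, adjusted p = 0.0110 from edgeR), a 1.51-fold difference. The direction was the same with each library left out, but the call was lost without MIZ-1WT replicate 1 (adjusted p = 0.0650) and without MIZ-1WT replicate 2 (adjusted p = 0.0775).

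Its paralog *Bhlhe40* (ENSMUSG00000030103, chromosome 6 from 108660629 to 108666925), which is induced by activating signals, was the most abundant factor of the list. Its level was 28.6 and 25.8 CPM in MIZ-1WT and 26.1 and 25.8 CPM in MIZ-1DPOZ. The groups overlapped, and the log2 fold change was -0.07 (95% confidence interval from -0.25 to 0.12, adjusted p = 0.530 from edgeR). The gene shares 118 bases of exon with the antisense gene *0610040F04Rik*, which had 0 counts in each library.

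*Ctla4* (ENSMUSG00000026011) lies on chromosome 1 from 60887000 to 60915832 and encodes the inhibitory receptor for CD80 and CD86, which B-1a cells express as well as T cells. It was the least abundant member by counts, with 55 and 52 counts in MIZ-1WT and 131 and 123 in MIZ-1DPOZ. In CPM these were 1.26 and 1.24 against 2.75 and 2.80. Replicates were close together in both genotypes, and the groups did not overlap. At counts this low, the closeness of replicates says little about the true spread. The difference was 2.22-fold, or 1.15 on the log2 scale with a standard error of 0.18 (adjusted p = 0.00651 from edgeR), and stayed called with each library left out.

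Markers of T cells were set beside *Ctla4*, because T cells make it too. Of 20 T cell markers, 2 were higher (*Cd4* and *Cd28*), 1 was lower (*Cd2*) and 17 were not called, with a median log2 fold change of 0.04. The summed level of the list was between 318 and 341 CPM in MIZ-1WT and between 275 and 289 CPM in MIZ-1DPOZ, and no marker of the list was at 0. *Cd3e*, a part of the T cell receptor complex, had 24 and 17 counts in MIZ-1WT and 16 and 19 in MIZ-1DPOZ. This was fewer than *Ctla4* in each library, so the sum rests mostly on other genes of the list. Which cells made those transcripts, and whether T cell RNA contributed to *Ctla4*, was not tested. *Foxp3*, the factor of regulatory T cells, had between 1 and 10 counts in a library and was not tested. Of the 5 tested regulatory T cell markers, 1 was higher, which was *Icos*. *Cd4* rose from 7.68 and 5.71 CPM to 15.0 and 12.7 CPM, a log2 fold change of 1.05 (adjusted p = 0.00699 from edgeR), so the listed markers did not move as one group. *Cd4* lay well above *Cd3e* in level, and which cells made its transcripts was not tested.

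*Cd5* (ENSMUSG00000024669) lies on chromosome 19 from 10717116 to 10739002 and encodes the surface receptor that defines B-1a cells and that T cells carry at higher levels. It had 4.42 and 2.69 CPM in MIZ-1WT and 3.87 and 4.67 CPM in MIZ-1DPOZ. The groups overlapped, and the spread within MIZ-1WT was the widest relative to its mean after that of *Nt5e*. The log2 fold change was 0.26 (95% confidence interval from -0.39 to 0.91, adjusted p = 0.469 from edgeR), so that a change of either sign was not detectable at this spread, and the sign turned without MIZ-1WT replicate 2 (-0.05). Between the MIZ-1WT replicates *Cd5* differed by 0.72 on the log2 scale, and its neighbour and paralog *Cd6*, 50.3 kb away, differed by 0.69. Of the T cell markers, *Cd8a* differed between the same libraries by 0.48 and *Cd28* by -0.24, and the summed list of 20 by 0.10. *Cd3e* and *Cd4*, whose values are given above, were also higher in MIZ-1WT replicate 1 than in replicate 2. Whether T cell RNA contributed to *Cd5* was not tested.

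*Spn* (ENSMUSG00000051457, chromosome 7 from 127132232 to 127137823) encodes CD43, a sialoglycoprotein of B-1 cells, plasma cells and T cells. Its level was 52.2 and 56.9 CPM in MIZ-1WT and 58.5 and 58.0 CPM in MIZ-1DPOZ. Although the groups did not overlap, the log2 fold change of 0.10 (95% confidence interval from -0.06 to 0.25, adjusted p = 0.264 from edgeR) did not pass the test. When libraries were scaled on 9 pan-B cell genes in place of TMM, *Spn* was called higher, at 0.34 (adjusted p = 0.00771). That scaling lifted the median of all genes by 0.24, and *Spn* lay just above the shift.

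Among the memory genes, *Cd80* (ENSMUSG00000075122) lies on chromosome 16 from 38455561 to 38496335 and encodes the costimulatory ligand of CD28 and CTLA-4. Its counts were 165 and 130 in MIZ-1WT and 351 and 296 in MIZ-1DPOZ, which gave 3.78 and 3.09 CPM against 7.37 and 6.74 CPM. Both MIZ-1DPOZ libraries were higher. The log2 fold change was 1.04 (standard error 0.16, 95% confidence interval from 0.65 to 1.43, adjusted p = 0.00573 from edgeR), and the call held with each library left out (0.90 to 1.19).

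*Nt5e* (ENSMUSG00000032420) lies on chromosome 9 from 88327197 to 88372092 and encodes CD73, the enzyme that turns AMP into adenosine. It had 216 and 383 counts in MIZ-1WT and 1740 and 954 in MIZ-1DPOZ. In CPM, the level was 4.95 and 9.11 in MIZ-1WT and 36.6 and 21.7 in MIZ-1DPOZ. This was the member that differed most between genotypes and also among replicates. Its log2 fold change was 2.05 (standard error 0.35, 95% confidence interval from 1.19 to 2.92, adjusted p = 0.00809 from edgeR), or 4.15-fold, and it ranged from 1.63 to 2.56 with a library left out, all called.

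The order of *Nt5e* over the 4 libraries was that of the macrophage list. *Tbx21* had this order too, as did *Ahr*, *Pstpip2*, *Cd44*, *Il9r*, *Cd86*, *Itgax*, *Cd28* and *Ada*, among others of the genes named below. The share of all genes with this order was not counted, and a link between this order and macrophages was not tested. Replicate 1 minus replicate 2 was -0.88 for *Nt5e* and -0.39 for the summed macrophage list in MIZ-1WT, and 0.75 and 0.66 in MIZ-1DPOZ, all on the log2 scale. The summed macrophage level was between 912 and 1198 CPM in MIZ-1WT and between 3355 and 5317 CPM in MIZ-1DPOZ, and no marker was at 0. *Adgre1*, which encodes F4/80, had 77.2 and 104 CPM in MIZ-1WT and 376 and 218 CPM in MIZ-1DPOZ. *Csf1r*, the receptor for macrophage growth factor, had 86.2 and 106 CPM against 439 and 312 CPM. *Cd80* differed less between replicates than this list, by 0.29 in MIZ-1WT and 0.13 in MIZ-1DPOZ, and *Ctla4* differed by 0.03 and -0.03 and *Bhlhe41* by 0.09 and -0.15. *Tbx21* differed by -0.70 in MIZ-1WT and 0.04 in MIZ-1DPOZ. Of 8 conventional dendritic cell markers, 4 were higher and 1 was lower, and *Zbtb46*, their defining factor, rose from 2.54 and 2.90 CPM to 6.58 and 5.79 CPM (adjusted p = 0.00399 from edgeR). The part of these cells in the levels of *Nt5e*, *Cd80* and *Tbx21* was not tested.

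**Figure D2:**
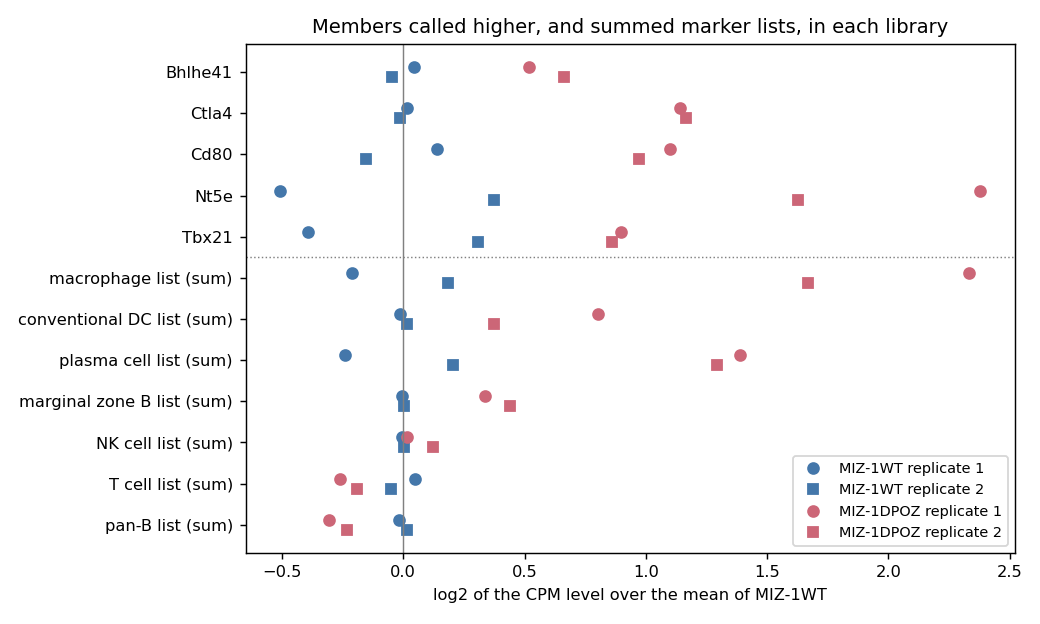
Level of the 5 members called higher and of 7 summed marker lists in each library, as log2 of the CPM over the MIZ-1WT mean; colours give the genotype and shapes the replicate. *Nt5e* spreads between replicates in the same order as the macrophage list in both genotypes. *Tbx21* does so in MIZ-1WT, while its MIZ-1DPOZ replicates lie close together. The replicates of *Ctla4* lie together in both genotypes. The summed T cell and pan-B lists lie below the MIZ-1WT mean in MIZ-1DPOZ.

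*Pdcd1lg2* (ENSMUSG00000016498) lies on chromosome 19 from 29410919 to 29471161 and encodes PD-L2, a ligand of PD-1 that marks a memory subset and B-1 cells. It was the only member with both MIZ-1DPOZ libraries below both MIZ-1WT libraries, at 9.88 and 10.9 CPM against 12.5 and 12.4 CPM. The log2 fold change of -0.26 (95% confidence interval from -0.50 to -0.02, adjusted p = 0.0777 from edgeR) did not pass after adjustment, and it was -0.02 when libraries were scaled on pan-B cell genes. *Cd274*, which encodes the related ligand PD-L1 and lies 22.8 kb away, was higher in MIZ-1DPOZ at 86.2 and 86.7 CPM against 68.9 and 60.8 CPM (log2 fold change 0.41, standard error 0.07, adjusted p = 0.00810 from edgeR). The 2 neighbours thus had fold changes of opposite sign, and the difference between them was not tested.

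Among the atypical B cell genes, *Tbx21* (ENSMUSG00000001444) lies on chromosome 11 from 97098071 to 97115331 and encodes T-bet. Its counts were 161 and 252 in MIZ-1WT and 429 and 386 in MIZ-1DPOZ, with mean levels of 4.84 ± 1.63 and 8.90 ± 0.155 CPM (SD, n = 2). The MIZ-1DPOZ libraries were close to each other and above both MIZ-1WT libraries, which differed by 0.70 on the log2 scale. The log2 fold change was 0.88 (standard error 0.23, 95% confidence interval from 0.31 to 1.45, adjusted p = 0.0295 from edgeR), or 1.84-fold. Without MIZ-1WT replicate 1 it was 0.57 and no longer called (adjusted p = 0.0799). NK cells express T-bet as well, and of 10 NK cell markers 2 were higher, 1 was lower and 7 were not called. *Ncr1*, their defining receptor, had 6.83 and 8.09 CPM in MIZ-1WT and 7.96 and 8.50 CPM in MIZ-1DPOZ. The summed NK cell level was 75.5 and 76.0 CPM in MIZ-1WT and 76.6 and 82.5 CPM in MIZ-1DPOZ, and no marker was at 0.

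*Sox5* (ENSMUSG00000041540, chromosome 6 from 143828425 to 144781977), a factor of the SOX family, had 2.96 and 3.28 CPM in MIZ-1WT and 3.30 and 2.92 CPM in MIZ-1DPOZ. The groups overlapped, with a log2 fold change of 0.00 to 2 decimals (-0.0048) and a 95% confidence interval from -0.43 to 0.42 (adjusted p = 0.985 from edgeR). It shares 1330 bases of exon with the antisense gene *Sox5os1*, which had 0 counts in each library.

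**Figure D3:**
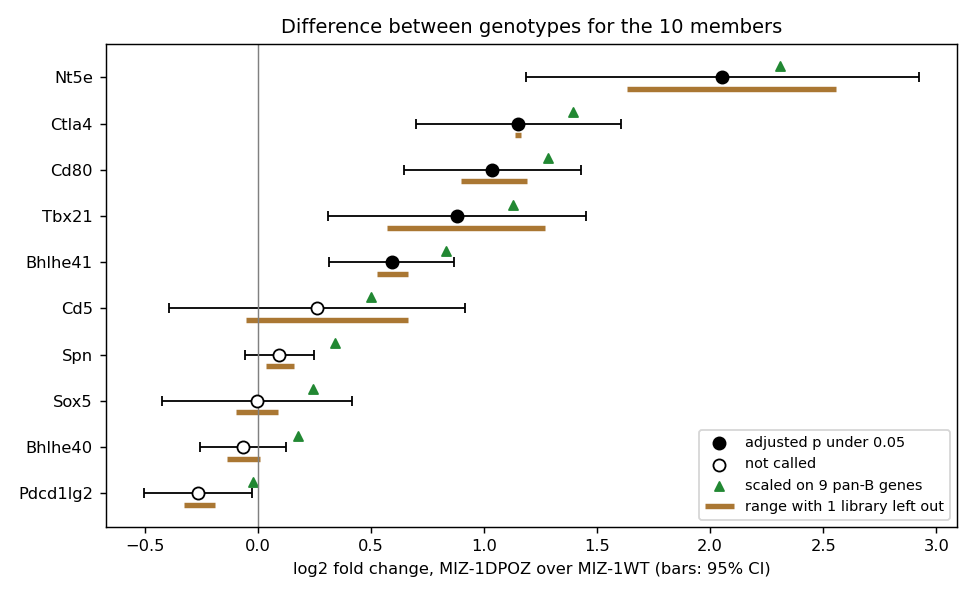
Log2 fold change of each member, MIZ-1DPOZ over MIZ-1WT, with its 95% confidence interval (edgeR); filled points passed an adjusted p of 0.05. Triangles give the value scaled on 9 pan-B cell genes and the brown bars the range with 1 library left out; the 5 called members stay above 0 in each case, from 0.53 for *Bhlhe41* to 2.56 for *Nt5e* with a library left out.

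Levels were compared between members per kilobase of exon, with counts divided by exon length and then scaled to the same sum in every library. In MIZ-1WT, *Spn* was highest at 29.8 ± 1.62 (SD, n = 2), followed by *Pdcd1lg2* at 16.3 ± 0.246 and *Bhlhe40* at 14.8 ± 1.18. *Tbx21* followed at 4.98 ± 1.64, apart from its neighbours. *Bhlhe41* (2.69 ± 0.137), *Cd80* (2.38 ± 0.354), *Nt5e* (2.09 ± 0.862), *Cd5* (1.85 ± 0.651) and *Ctla4* (1.37 ± 0.0279) formed a run in which each gene overlapped with the next. *Sox5* was lowest at 0.556 ± 0.0372. In MIZ-1DPOZ, *Nt5e* had moved from place 7 to place 5, at 9.40 ± 3.70, where it overlapped with *Tbx21* at 9.86 ± 0.538. *Ctla4*, at 3.28 ± 0.0802, lay above *Cd5* at 2.38 ± 0.230, and *Spn* remained highest and *Sox5* lowest.

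Further genes of the 3 cell states were read from lists, which shows how far the members stood for their kind. Of 13 tested genes that also mark or regulate B-1 cells, 5 were higher, 3 were lower and 5 were not called, with a median log2 fold change of 0.20. *Cd9*, a tetraspanin of B-1 and marginal zone B cells, rose from 20.9 and 17.1 CPM to 44.8 and 43.9 CPM (log2 fold change 1.22, adjusted p = 0.00139 from edgeR). *Ahr*, the aryl hydrocarbon receptor, rose by 0.98 (adjusted p = 0.00286). *Pstpip2*, an adaptor of the actin cytoskeleton, rose by 1.49 from 13 and 19 counts to 55 and 42, a call lost without MIZ-1WT replicate 1 (adjusted p = 0.0916) and without MIZ-1DPOZ replicate 1 (adjusted p = 0.0529). *Il5ra*, the receptor for the B-1 growth factor IL-5, went the other way, from 24.2 and 23.4 CPM to 11.3 and 13.7 CPM (log2 fold change -0.93, adjusted p = 0.00284 from edgeR). *Siglecg*, an inhibitory receptor that limits B-1 cells, was lower by a log2 fold change of -0.34 and *Hepacam2* of -0.28. The calls of *Siglecg* and *Hepacam2* were lost without either MIZ-1WT replicate (adjusted p between 0.0702 and 0.146) and when scaled on pan-B cell genes (adjusted p = 0.214 and 0.728). *Hepacam2* also lost its call without MIZ-1DPOZ replicate 1 (adjusted p = 0.0604). Without MIZ-1DPOZ replicate 1 or MIZ-1WT replicate 1, 2 genes of this list stayed higher. All 8 marginal zone markers, *Cd9* among them, were higher, with a median of 0.70. Of 7 follicular markers, 4 were lower, 1 was higher and 2 were not called. The higher one, *Cr2* (0.25), is in both lists and had the smallest value of the marginal zone list.

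Of 10 further genes of memory B cells, 4 were higher, 4 were lower and 2 were not called, with a median of -0.03. *Il9r*, the IL-9 receptor, rose from 133 and 147 CPM to 720 and 709 CPM (log2 fold change 2.35, standard error 0.06, adjusted p = 8.19e-05 from edgeR). *Cd44*, an adhesion receptor of activated and memory lymphocytes, rose by 0.69 (adjusted p = 0.00145). *Cd86*, the second ligand of CD28 and CTLA-4, rose by 0.71 (adjusted p = 0.0156), a call lost without either MIZ-1WT replicate (adjusted p = 0.0877 and 0.0787). Its MIZ-1DPOZ replicates differed, at 156 and 111 CPM. *Bcl6*, the germinal center repressor, fell from 114 and 105 CPM to 42.7 and 43.0 CPM (log2 fold change -1.36, adjusted p = 0.000682 from edgeR). *Hhex*, a factor needed for memory B cell fate, fell from 53.6 and 55.2 CPM to 26.3 and 30.1 CPM (log2 fold change -0.95, adjusted p = 0.00134 from edgeR). *Bach2*, which favours memory over plasma cell fate, fell by 0.52 on the log2 scale (adjusted p = 0.0295), and lost its call without either MIZ-1WT replicate (adjusted p = 0.121 and 0.110) and when scaled on pan-B cell genes (adjusted p = 0.0865).

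The list of 12 further atypical B cell genes had 9 higher, 2 lower and 1 not called, with a median of 0.84. In the same libraries all 16 macrophage markers and all 8 marginal zone markers were higher. Which cells made the transcripts of this list was not tested. *Cxcr3*, a chemokine receptor and a well known target of T-bet, rose from 3.39 and 3.19 CPM to 10.7 and 12.1 CPM (log2 fold change 1.79, standard error 0.13, adjusted p = 0.00102 from edgeR). *Il12rb1*, a subunit of the IL-12 receptor, rose from 2.75 and 2.28 CPM to 4.73 and 6.17 CPM (log2 fold change 1.11, adjusted p = 0.00966), a call lost without MIZ-1WT replicate 2 (adjusted p = 0.0630). *Itgax*, which encodes CD11c, rose from 10.8 and 13.9 CPM to 33.9 and 21.1 CPM (log2 fold change 1.16, adjusted p = 0.0150), and its call was lost without MIZ-1WT replicate 1 (adjusted p = 0.0926). Its replicates differed in the order of the macrophage list, and macrophages and dendritic cells express it, a part that was not tested. *Fcrl5* and *Tlr7*, named after their values were seen, differed by 0.89 and 0.85 with replicates no further apart than 0.14 on the log2 scale. *Cxcr3* and *Tlr7* lie on the X chromosome, and sex and genotype cannot be told apart in these libraries. The part of sex in their levels was not tested. The exceptions were *Stat4*, which signals for IL-12 and fell by 0.67 on the log2 scale (adjusted p = 0.00253), and *Il21r*, the receptor for IL-21, which fell by 0.38 (adjusted p = 0.00370). Scaled on pan-B cell genes, *Il21r* was at -0.14 and not called (adjusted p = 0.111).

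**Figure D4:**
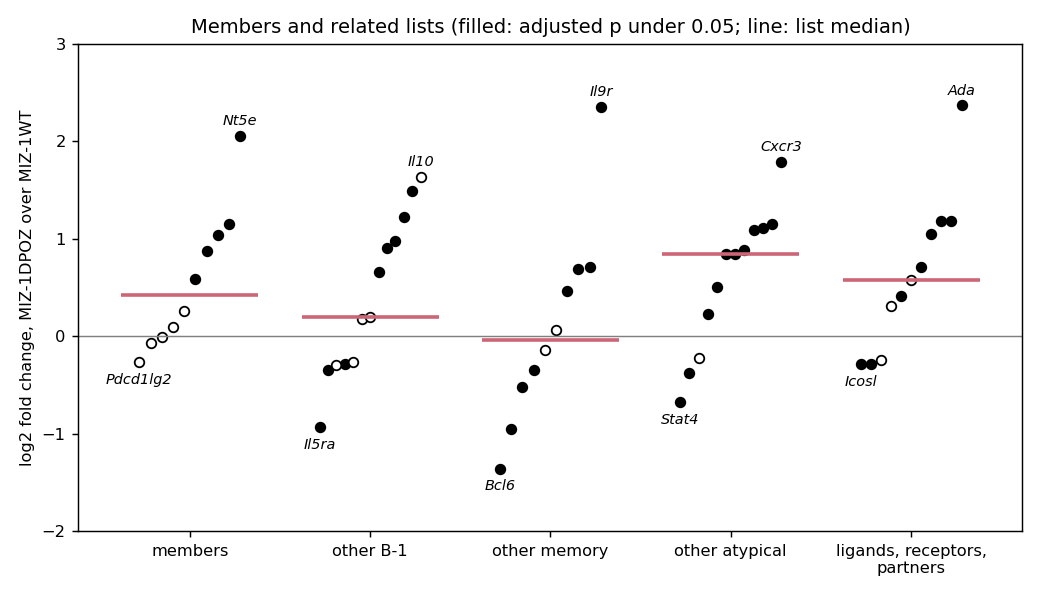
Log2 fold change, MIZ-1DPOZ over MIZ-1WT, of the 10 members and of the tested genes of 4 related lists; filled points passed an adjusted p of 0.05 (edgeR) and lines are list medians, at 0.43, 0.20, -0.03, 0.84 and 0.58 from left to right. The highest and lowest gene of each list is named.

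Several members encode one side of a ligand and receptor pair or one step of a pathway. Of 11 tested ligands, receptors and partners, 6 were higher, 2 were lower and 3 were not called, with a median of 0.58. *Ctla4* lies in a cluster on chromosome 1, 114 kb from *Cd28* and 62.1 kb from *Icos*. *Cd28*, the activating receptor for the same ligands, rose from 5.75 and 6.80 CPM to 14.4 and 14.2 CPM (log2 fold change 1.19, adjusted p = 0.00183 from edgeR). *Icos*, a costimulatory receptor, rose from 35 and 35 counts to 91 and 79 (log2 fold change 1.18, adjusted p = 0.00961 from edgeR), although its call was lost without either MIZ-1WT replicate (adjusted p = 0.0638 and 0.0511). The 3 receptors of this cluster thus had log2 fold changes between 1.15 and 1.19. *Icosl*, the ligand of ICOS, was lower at -0.29 and *Cd72*, a coreceptor of B cells, also at -0.29. Neither stayed called without either MIZ-1WT replicate (adjusted p between 0.0575 and 0.121) or when scaled on pan-B cell genes (adjusted p = 0.552 and 0.714).

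Genes of the adenosine route around CD73 are given beside *Nt5e*. *Entpd1*, which encodes CD39, the enzyme before CD73, rose from 57.8 and 53.4 CPM to 134 and 96.4 CPM (log2 fold change 1.05, adjusted p = 0.00500 from edgeR), and was named after its values were seen. *Ada*, the deaminase that removes adenosine, rose from 5.62 and 7.33 CPM to 39.9 and 27.0 CPM (log2 fold change 2.37, adjusted p = 0.00173 from edgeR). Like *Nt5e*, *Ada* differed between replicates in the order of the macrophage list, by -0.38 in MIZ-1WT and 0.56 in MIZ-1DPOZ. *Adora2a*, the adenosine receptor of lymphocytes, was not called at -0.24, and *Adora2b* had too few counts to be tested. Among 8 tested paralogs of the members, 3 were higher (*Cd28*, *Cd86* and *Cd274*) and *Tbx6*, of the T-box family, was lower at -1.03 (adjusted p = 0.0103 from edgeR), with its call lost without MIZ-1WT replicate 1 (adjusted p = 0.0671). The closest relative of *Tbx21*, *Eomes*, was at 0.11 and not called.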

How the data were processed

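Total RNA of B220+ splenocytes was depleted of ribosomal RNA and sequenced with a stranded kit, in 2 biological replicates per genotype. The authors trimmed the paired-end reads with Trimmomatic, mapped them to mm10 (GRCm38) with TopHat2 (version 2.1.0 per the submitters' processing notes, while the methods name another version) and counted them per Ensembl gene with HTSeq, and they deposited raw counts without normalization. The strand setting and the Ensembl release are not given in the sources used here, so genes that overlap an antisense gene are uncertain. Summary lines for reads outside genes (21.1% to 27.2% of a column) and for multiply aligned reads (42.8% to 44.1%) of the counter were left out of library sizes.

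Symbols, positions and exon lengths came from GENCODE M21 on GRCm38. A gene was tested if 2 or more of the 4 libraries had 10 or more counts, with edgeR version 4.0.16 (TMM, quasi-likelihood test, Benjamini-Hochberg adjustment over all 14554 genes, threshold 0.05), in R version 4.3.3, after a test on simulated data. The common dispersion was 0.00848. DESeq2 version 1.42.0 was an alternative. The study's p limit was read as under 0.05. Whether a replicate was 1 animal or a pool is not given in the sources used here, so p-values measure the spread between these samples. The spread within a genotype was larger than counting noise in both.

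The members, lists, naming rule and alternatives were all chosen with earlier results of these data known. Named are all members, up to 3 called genes per direction and list with the largest change, and defining markers. *Ighd* was not analysed here. Promoter windows came from RefSeq (GRCm38.p6).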

Additional observations from a re-analysis of the deposited data

How the results depend on the processing

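The 5 calls among members, and the absence of a lower one, were the same with DESeq2's size factors, DESeq2's Wald test, no filter on counts and the replicate block (adjusted p at most 0.0277 for the 5 members under the block). Replicate numbers did not pair the libraries (the differences between replicates 1 and 2 of the 2 genotypes correlated at -0.07 over genes), and among the lists other than markers the block lost *Hepacam2* (adjusted p = 0.0583), *Zeb2* (0.0664, 8 atypical genes higher) and *Rora* (0.0705, 0 clock genes higher, as with DESeq2's Wald test) and added *Il10* (0.0310, 6 other B-1 genes higher). Among markers it lost *Klrk1* and *Retnlg* and added *Cd22*, *Ikzf2* and *Cd209d*.

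Scaling on pan-B cell genes added *Spn*, gave *Bhlhe40* 0.18 and *Sox5* 0.24, and moved the share of higher among all calls from 52.8% to 88.2% (5858 higher and 783 lower). Under it the other B-1 genes had 8 higher and 1 lower, memory genes 2 lower, atypical genes 1 lower, ligands and partners 0 lower, and clock genes 6 higher and 0 lower.

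Keeping genes with a mean of 30 RPM or more left 6052 genes, 2746 calls and 1 member, *Spn*, so 0 members were higher and 0 were past the size limit. It left 2 higher and 1 lower of the other B-1 genes, 2 memory genes lower, 4 atypical genes higher, 3 partners higher and 1 lower, and 1 clock gene lower.

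With 1 library left out, its lone partner was assumed to vary like the other genotype. Members higher ranged from 3 to 5, members past the size limit from 4 to 5, and calls over all genes from 2204 to 5739. Genes of the lists ranged from 2 to 7 higher and 1 to 4 lower (other B-1), 2 to 4 and 2 to 4 (memory), 5 to 9 and 2 to 3 (atypical), 4 to 6 and 0 to 2 (partners), and 0 to 1 and 0 to 5 (clock). Signs turned for 3 members that were not called, with log2 fold changes from -0.14 to 0.011 for *Bhlhe40*, from -0.053 to 0.67 for *Cd5* and from -0.095 to 0.091 for *Sox5*.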

Other observations

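*Bhlhe41* and *Bhlhe40* also act in the circadian clock, as repressors of genes driven by CLOCK and BMAL1 (*Arntl*). Of 12 tested clock genes, 1 was higher, 3 were lower and 8 were not called in MIZ-1DPOZ, with a median log2 fold change of -0.04. *Cry2* was at -0.50 (adjusted p = 0.0159 from edgeR), *Cry1* at -0.36 (adjusted p = 0.0118) and *Arntl* at -0.30 (adjusted p = 0.0143). *Rora* was at 0.89 (adjusted p = 0.0469), with 41 and 45 counts in MIZ-1WT and 105 and 66 in MIZ-1DPOZ. None of these 4 stayed called without either MIZ-1WT replicate (adjusted p between 0.0565 and 0.192), *Rora* was also not called without MIZ-1DPOZ replicate 1 (adjusted p = 0.205), and the 3 lower genes were not called when scaled on pan-B cell genes (adjusted p = 0.109, 0.349 and 0.529). The time of day at which spleens were taken is not given in the sources used here.

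Of 8 plasma cell markers, 7 were higher in MIZ-1DPOZ and 0 were lower, with a median of 1.06. *Sdc1*, which encodes CD138, had 18.7 and 19.9 CPM in MIZ-1WT and 31.1 and 28.2 CPM in MIZ-1DPOZ (log2 fold change 0.62, adjusted p = 0.00373 from edgeR). *Prdm1*, the factor that drives plasma cell fate and is repressed by BCL6 and BACH2, rose by 1.40 (adjusted p = 0.000887), with replicates no further apart than 0.13 on the log2 scale; it was named after its values were seen.

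Of 8 plasmacytoid dendritic cell markers, which carry B220 themselves, 1 was higher, 1 was lower and 6 were not called, and *Siglech* had 1963 and 1911 counts in MIZ-1WT and 1997 and 1159 in MIZ-1DPOZ. Neutrophil markers were sparse, with 2 of 5 tested genes higher and *Ly6g* and *Elane* at 0 in some libraries.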
